A study of Drosophila melanogaster with 6 samples.

Results

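Control midgut progenitors of adult Drosophila melanogaster are the cells described here, in 3 of the 6 RNA libraries of the series, chosen by their titles. Every gene of the deposited table was ranked, 17807 in all, by its mean over these 3 libraries, called control A, B and C, and values of a gene are given in that order. The flies had the genotype esgts, UAS-GFP, in which a temperature-sensitive driver switches on green fluorescent protein (GFP) in cells that use the escargot (esg) gene, and their treatment is labelled control. For each replicate, 70 guts were dissected and dissociated, and GFP-positive cells, 100000 at most, were collected by fluorescence-activated sorting, their RNA was isolated with a PicoPure kit, and stranded mRNA libraries were made. The sample labels give 4 days of induction at 29 °C, whereas the growth protocol, written for another transgene, describes adults of 3 days that were raised at 18 °C and moved to 29 °C for 1 day. Nothing in the labels says whether the libraries came from separate crosses or days, so the spread between them may be technical in part. The other 3 libraries carry a knockdown of linker histone H1 and were not used.

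The adult fly midgut is renewed by intestinal stem cells, which divide and give rise to enteroblasts, the precursors of the absorptive enterocytes. Stem cells display the ligand Delta, and Notch signalling in the daughter that receives it drives that daughter towards the enterocyte fate, while daughters with low Notch activity can become hormone-producing enteroendocrine cells. The transcription factor encoded by esg is used by stem cells and enteroblasts together, so a sort on an esg reporter collects both, along with any cell that still holds GFP from its precursor.

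Values are TPM, an abundance measure scaled to a fixed library total and corrected for gene length, so levels can be compared between genes. A gene was called detected when it reached 1 TPM in all 3 libraries, which 7530 genes did, 42.3% of the table. A further 1060 genes reached that level in only 1 or 2 libraries, 4400 were listed above 0 without reaching it, and 4817 were listed at 0 throughout. Control A had 7974 genes at 1 TPM or more, control B 8316 and control C 7767. Among protein-coding genes 7107 of 13883 were detected, and counts of detected members in lists of such genes should be read beside this share. Control B stood apart from the others for more genes than control A or C did, so values are given for each library. Without control B, 7602 genes were detected and the 100 highest genes held 58.1% of the TPM. Errors are SD over the 3 libraries unless stated otherwise. Counts of reads were not part of the table, so the depth is unknown and no counting interval is given.

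Of the 5 markers named for these progenitors, the 4 that matched a row were detected in every library. Detection at 1 TPM cannot settle the cell type. By the same rule 10 of 10 enterocyte markers, 8 of 10 enteroendocrine markers and 4 of 4 neuronal markers were detected. E(spl)mbeta-HLH, a Notch target that encodes a basic helix-loop-helix repressor (chromosome 3R, 26005046 to 26006023), stood at 1009, 879.6 and 1003 TPM. It ranked 137th of all genes, with the libraries close together. The enteroblast transcription factor klumpfuss, klu (3L, 10981171 to 11009188), had 96.5, 55.1 and 64.1 TPM, and was highest in control A. The Notch receptor gene N (X, 3134870 to 3172221) had 56.2, 41.0 and 45.5 TPM. Delta (3R, 19302731 to 19326217), the ligand of the stem cells, was the lowest of the 4 with 8.76, 2.10 and 1.66 TPM, and its mean of 4.17 ± 3.98 TPM rested largely on control A. The order of these 4 levels was the same in each library, and no value of a marker overlapped those of the next marker in that order except for klu and N, where klu in control B lay below N in control A. The marker esg, the gene behind the sort, could not be matched to a row by symbol or by its identifier in the name tables, and its level is not analysed here. Positions of genes were read from the annotation of Ensembl release 115 (BDGP6.54).

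The transcriptome was dominated by the machinery of protein synthesis. RpL41, which encodes the smallest protein of the large ribosomal subunit, was the highest gene with 15919, 14078 and 16253 TPM. eEF1alpha1, the elongation factor that brings aminoacyl-tRNA to the ribosome, followed with 14468, 15266 and 16277 TPM, and these values overlapped those of RpL41. Next came mt:CoIII, a mitochondrially encoded subunit of cytochrome c oxidase, with 9509, 11239 and 11634 TPM, then RpL27A with 10086, 9349 and 10522 TPM. Of the 40 highest genes, 34 encode cytosolic ribosomal proteins, 3 are mitochondrially encoded, 1 is a translation factor and 2 are glutathione S-transferases. Their order is loose, since the 3 values of 38 of the 39 neighbouring pairs overlapped. The 100 highest genes held 57.1% of all TPM in control A, 54.9% in control B and 58.9% in control C, a mean of 56.9% ± 2.01 (n = 3). Ribosomal proteins alone accounted for 47.7%, 43.5% and 48.4%, and 77 genes were enough to reach 50% of the TPM.

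**Figure D1:**
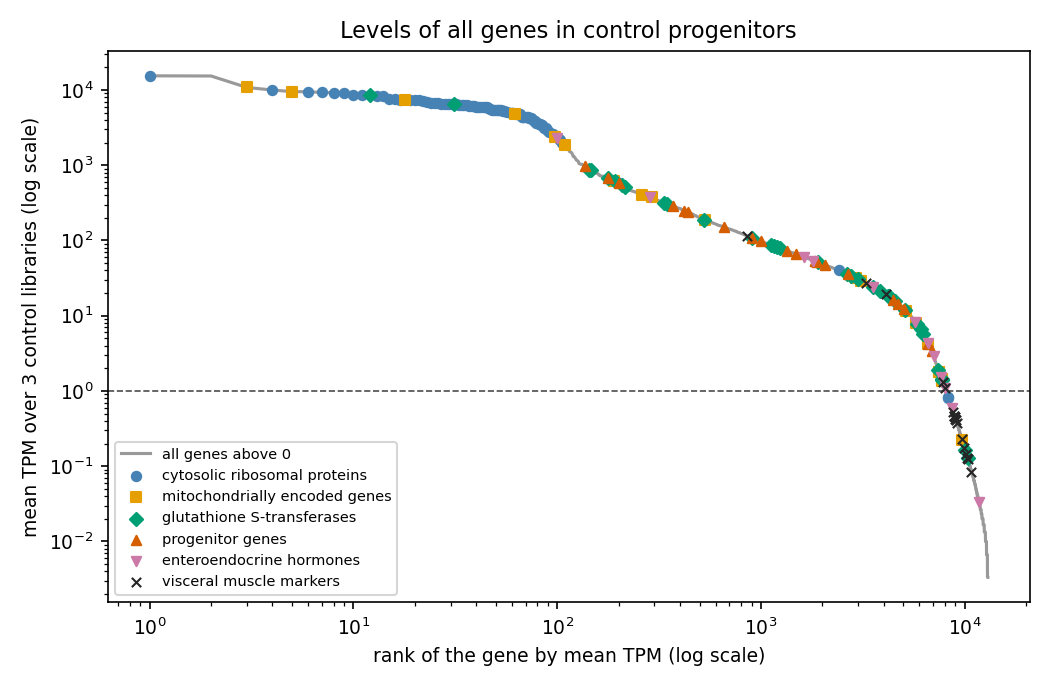
Mean TPM of every gene above 0 over the 3 control libraries (vertical, log scale) against its rank (horizontal, log scale), with the members of 6 gene groups marked and a dashed line at 1 TPM. Ribosomal proteins fill the plateau at the left, progenitor genes spread from rank 137 downwards, and the visceral muscle markers other than Tm1, vn and Zasp52 lie near or below the line.

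Ribosomal protein genes were even between libraries and uneven between paralogs. Of 89 listed, 83 were detected, with a median coefficient of variation of 5.94% over the libraries, against 14.9% for all 8080 genes at a mean of 1 TPM or more. That median was 12.1% for genes at a mean of 100 TPM or more. It was 6.80% at 1000 TPM or more, a class that includes most of these ribosomal genes. The 6 listed genes that were not detected are extra copies of a ribosomal protein gene. RpS5b had 0.81, 0.84 and 0.78 TPM beside 4341, 4146 and 4536 TPM for its paralog RpS5a, and RpS19b had 0.41, 1.32 and 0.76 TPM beside 3103, 2999.9 and 3307 TPM for RpS19a. RpL10Aa, RpS10a, RpS28a and RpL37-2 were listed at 0 in every library, while their partners RpL10Ab, RpS10b, RpS28b and RpL37-1 averaged 5576 ± 289 TPM, 2594 ± 253 TPM, 3634 ± 237 TPM and 4829 ± 461 TPM. The sources used here do not say how reads shared by such copies were assigned, so the low values of the extra copies are uncertain. Beyond the ribosome, elongation factor eEF2 had 4978, 5075 and 4947 TPM, the helicase gene eIF4A had 4184, 3718 and 4246 TPM, and 43 of 53 listed translation factors were detected.

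Several abundant genes stood outside protein synthesis. The detoxifying enzyme genes GstD1 (3R, 12367817 to 12369268) and GstD2 (3R, 12371971 to 12372704), which encode glutathione S-transferases, ranked 12th and 31st. GstD1 had 4087, 12579 and 8920.1 TPM, and GstD2 had 2978, 11696 and 4904 TPM. Both were lowest in control A and highest in control B, a spread far above that of the ribosomal genes around them. The constitutive chaperone gene Hsc70-4 had 5798, 4811 and 5193 TPM, the actin gene Act5C had 4332, 3739 and 4982 TPM and the tubulin gene alphaTub84B had 2957, 2575 and 2461 TPM. Among abundant genes on none of the lists, picked here after their levels were seen, bic and Nacalpha encode the 2 subunits of the complex that binds nascent chains at the ribosome. They had 2869, 2385 and 2680.2 TPM for bic and 2407, 2059 and 2291 TPM for Nacalpha. Lsd-2, a perilipin of lipid droplets, had 863, 999 and 1054 TPM, and the small GTPase gene Rho1 had 853, 989.7 and 1003 TPM.

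All 21 matched genes of the progenitor list were detected, beside 7107 of 13883 protein-coding genes and 42.3% of the whole table. Their summed level was 3896 TPM in control A, 3568 in control B and 3859 in control C. Sox100B and Sox21a encode Sox factors that progenitors need to differentiate. Sox100B (3R, 31065253 to 31083407) had 720.0, 692 and 599 TPM, and Sox21a (3L, 14103481 to 14108118) had 316, 202 and 335 TPM. Sox100B was the higher gene in each library, without overlap. The integrin alpha subunit gene scb had 484, 656 and 619.9 TPM, and mew, another integrin alpha subunit, had 233, 212 and 265 TPM. The zinc finger gene peb, needed in enteroblasts that become enterocytes, had 183, 93.5 and 177 TPM and was lowest in control B. The filamin gene cher had 233, 243 and 265 TPM. The adaptor gene mira, known for unequal inheritance of fate determinants in dividing neuroblasts, had 125, 92.9 and 106 TPM, and the E-cadherin gene shg had 114, 77.0 and 102 TPM.

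Notch targets were expressed very unevenly. Of 14 listed, 8 were detected, a share near the 7107 of 13883 of all protein-coding genes. E(spl)mbeta-HLH, E(spl)malpha-BFM and E(spl)m3-HLH accounted for nearly all of the summed level of the list, 2092, 1718 and 2277 TPM. E(spl)malpha-BFM, of the Bearded family of small regulators of Notch signalling, had 786, 598 and 903 TPM. E(spl)m3-HLH, a repressor like E(spl)mbeta-HLH, had 256, 202 and 329 TPM. Both were lowest in control B. The next gene of the complex, E(spl)m7-HLH, had only 4.68, 5.04 and 4.34 TPM, and E(spl)m8-HLH, E(spl)m5-HLH, E(spl)mdelta-HLH and E(spl)m4-BFM stayed below 1 TPM in every library. Kaz-m1, a protease inhibitor gene of the same cluster, had 29.1, 23.3 and 28.6 TPM.

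The components of the pathway itself were more level. Of 23 listed, 22 were detected, beside 7107 of 13883 protein-coding genes. The metalloprotease gene kuz, whose product cleaves the activated receptor, had 179, 164 and 167 TPM. fng, which encodes a glycosyltransferase that modifies Notch, had 72.0, 95.9 and 149 TPM and was highest in control C. The endosomal regulator l(2)gd1 had 73.6, 84.8 and 78.9 TPM, the corepressor gene gro had 69.7, 65.3 and 68.2 TPM, and mib1, a ubiquitin ligase for the ligands, had 56.2, 75.2 and 53.1 TPM. The DNA-binding effector Su(H) was much lower with 8.58, 7.09 and 9.15 TPM, and the other Notch ligand, Ser, the member that was not detected, had 0, 0.08 and 0.01 TPM.

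Of 129 listed transcription factor genes, 105 were detected, beside 7107 of 13883 protein-coding genes. A mean of 100 TPM or more was reached by 19 of them, while 20 listed genes stayed below 1 TPM in every library. Ranks below are within this list, which does not hold every transcription factor, for example not E(spl)mbeta-HLH. Xbp1, the effector of the unfolded protein response, was the highest listed with 1174, 1536 and 1199.5 TPM. Rel, the NF-kappaB factor of the Imd immune pathway, followed with 703, 879 and 854 TPM, then Sox100B and SREBP, a regulator of lipid synthesis, with 300.0, 479 and 329.7 TPM. Both genes of the AP-1 pair were near, with 358, 349.9 and 371 TPM for kay, the Fos gene, and 255, 278 and 358 TPM for Jra, the Jun gene. Stress and metabolic factors were also among the 20 highest. crc, the fly ATF4, had 279, 322 and 246 TPM, cnc, the fly Nrf2, had 113, 161 and 133 TPM, and Atf3 had 146, 106 and 113 TPM. The endodermal GATA factor GATAe had 179.6, 138 and 152 TPM, the forkhead gene fkh had 162, 102 and 157 TPM, Stat92E had 172, 153 and 179.7 TPM, and Myc had 120.4, 81.0 and 108 TPM. In the order of these 20 genes, the values of 15 of the 19 neighbouring pairs overlapped, so most neighbours did not differ beyond the spread between libraries. CrebB was the steadiest of the 20 with 118, 116 and 113 TPM, and peb had the widest spread. Rel overlaps Nmdmc on the same strand over 3795 bp, so its level may include reads of that gene.

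**Figure D2:**
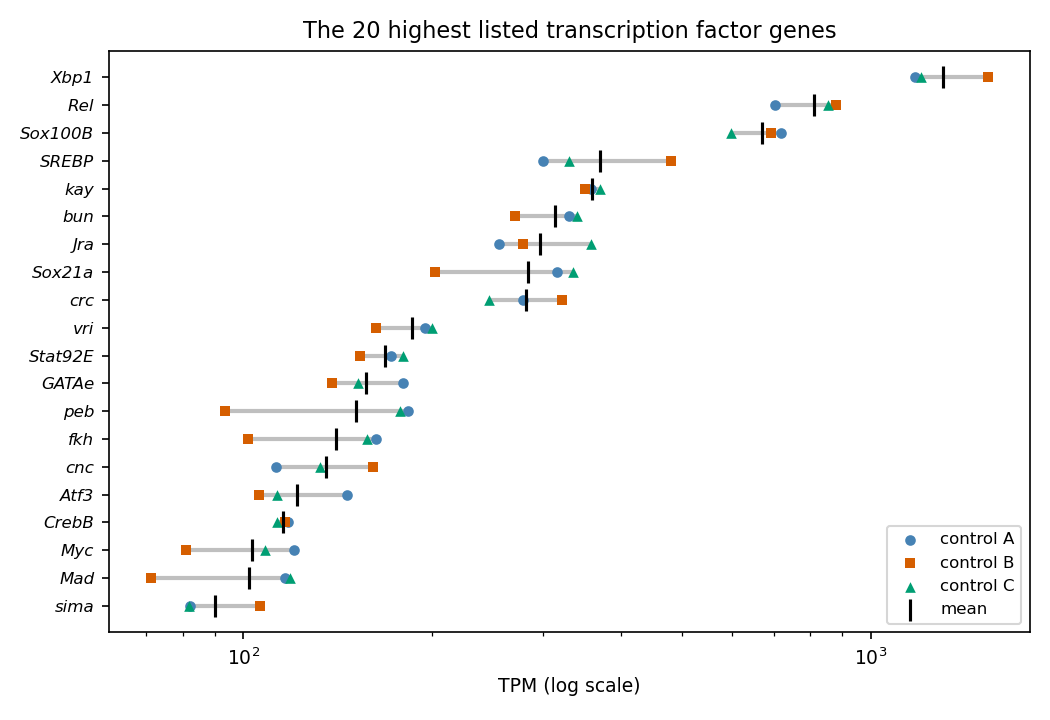
TPM (log scale) of the 20 listed transcription factor genes of highest mean, 1 row per gene in order of the mean. Coloured points are the 3 control libraries, the grey line spans them and the black tick is the mean. Xbp1 lies apart at the top at 1174 to 1536 TPM, and in 15 of the 19 neighbouring pairs of rows the points overlap.

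Some genes of enteroendocrine cells were abundant in every control library. Neuropeptide F, NPF (3R, 16609220 to 16611325), had 2348, 1964 and 2616 TPM and ranked 100th of all genes, above every progenitor gene on the list. Tachykinin, Tk (3R, 11994175 to 12005473), had 488, 263 and 391 TPM, lowest in control B. ITP, the ion transport peptide gene, had 67.6, 59.5 and 53.7 TPM, and Orcokinin had 44.7, 57.1 and 60.0 TPM. AstC, which encodes allatostatin C, had 11.5, 29.4 and 32.1 TPM, and CCHa1 had 2.44, 13.3 and 9.29 TPM, and both were lowest in control A. AstA was listed at 0.12, 1.90 and 2.57 TPM and did not reach 1 TPM in control A. Of 12 matched hormone genes 8 were detected, beside 7107 of 13883 protein-coding genes. Nplp2, also listed, matched no row and is not counted here. The list summed to 2967, 2399 and 3175 TPM, most of it NPF. All 12 listed genes of prohormone processing and secretory granules were detected, led by the amidating enzyme Phm with 131, 120.2 and 136 TPM and the granule protein IA-2 with 101, 85.3 and 111 TPM. The convertase gene amon, chosen here after its values were seen, had 18.5, 16.9 and 24.8 TPM.

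Regulators of the enteroendocrine fate were lower and patchier. Of 17 listed, 7 were detected, a somewhat lower share than the 7107 of 13883 of all protein-coding genes. Ptx1 had 47.3, 46.2 and 40.2 TPM, drm had 42.8, 48.4 and 39.2 TPM, exex had 48.5, 26.7 and 44.6 TPM and tap had 8.80, 9.09 and 8.50 TPM. The homeodomain factor pros, the usual marker of enteroendocrine cells, was at 2.39, 2.46 and 3.00 TPM, far below NPF and Tk, and the proneural gene sc was at 2.09, 2.25 and 2.54 TPM. In sorted bulk RNA, few cells with much hormone RNA and many cells with little cannot be told apart. The part of enteroendocrine cells in the sorted population was not tested.

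Enterocyte genes were present at low to moderate levels that differed widely between libraries. Of 56 digestive enzyme genes 33 were detected, a share not far from the 7107 of 13883 of all protein-coding genes. The list summed to 359 TPM in control A, 1675 in control B and 787 in control C. Its mean of 940.1 TPM was 573 TPM without control B. The trypsin gene alphaTry had 33.6, 285 and 91.1 TPM, the maltase gene Mal-A1 had 10.5, 278 and 8.90 TPM and Bace, an aspartyl protease, had 16.8, 188 and 28.8 TPM. All 3 genes were highest in control B, where Mal-A1 lay far above its level in the other libraries. The serine protease gene Jon65Aiv had 24.1, 159.8 and 45.8 TPM, while the amylase gene Amy-p had 58.6, 151 and 149 TPM, about equal in controls B and C. Amy-p and Amy-d, and alphaTry and betaTry, are close copies whose reads may have been split between them. Among 21 genes of enterocyte identity and junctions, 20 were detected. The brush border myosin Myo31DF had 297, 493 and 441 TPM. The smooth septate junction genes Ssk, mesh and Tsp2A had 7.90, 62.3 and 20.8 TPM for Ssk, 4.04, 49.0 and 14.0 TPM for mesh and 9.43, 61.4 and 18.0 TPM for Tsp2A, each highest in control B and lowest in control A. Ssk and Tsp2A overlap other genes on the opposite strand, and the sources used here do not say whether counting used strand. The enterocyte factor nub, a POU protein, stayed at 1.55, 3.20 and 1.60 TPM, and 2 other high members of the list, l(2)gl with 544, 646 and 516 TPM and Atpalpha with 188, 192 and 219 TPM, are used by most epithelia.

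Most markers of other tissues were near the floor of the table, with exceptions in most lists. The counts below stand beside 7107 of 13883 protein-coding genes detected. Of 18 visceral muscle genes 3 were detected, Tm1, vn and Zasp52. The defining muscle genes Mhc, Mlc1, Mlc2, Act57B and up summed to 3.78, 3.27 and 1.73 TPM. Tm1 also encodes tropomyosin of nonmuscle cells and had 115, 111 and 119.6 TPM, and vn, an EGFR ligand that visceral muscle is known to secrete, had 38.5, 14.8 and 28.9 TPM. Of 13 hemocyte genes 2 were detected. The defining genes Hml, NimC1, He and srp summed to 3.32, 0.89 and 0.87 TPM, mostly srp, eater was listed at 0 in every library, and only the CD36 family receptor crq was high, with 189, 202 and 243 TPM. The 4 tracheal markers summed to 21.0, 10.8 and 15.3 TPM, nearly all of it the FGF receptor gene btl with 19.7, 9.64 and 14.7 TPM, while trh was at 0.09, 0.15 and 0.08 TPM. Of the full list of 10 tracheal genes 2 were detected, btl and the claudin gene sinu, with 8.33, 9.58 and 8.40 TPM. Of 13 fat body genes 4 were detected, and the highest was the fatty acid synthase gene FASN1 with 86.3, 69.8 and 90.3 TPM. The defining fat body markers Lsp2, Fbp1 and apolpp summed to 2.89, 3.14 and 2.56 TPM. Of 16 neuronal genes 9 were detected, a share slightly above that of protein-coding genes, so this list was not depleted. The highest was unc-13 with 19.8, 16.9 and 14.8 TPM. The markers elav, brp, nSyb and Syn, all detected, added up to 15.2, 16.5 and 16.1 TPM. Of 16 germline and ovary genes only gcl was detected, with 21.3, 19.9 and 21.8 TPM. The 3 Malpighian tubule markers summed to 0.54, 2.75 and 0.43 TPM, and the germline markers vas, nanos and bam to 0.52, 5.17 and 0.46 TPM, the difference coming from bam with 0.40, 5 and 0.36 TPM. The yolk protein genes Yp1, Yp2 and Yp3, made by female fat body and ovary, had 0.03, 43.5 and 0.83 TPM for Yp1, 0.59, 22.6 and 0.54 TPM for Yp2 and 0.37, 19.4 and 0.37 TPM for Yp3, so control B alone held them above 1 TPM.

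**Figure D3:**
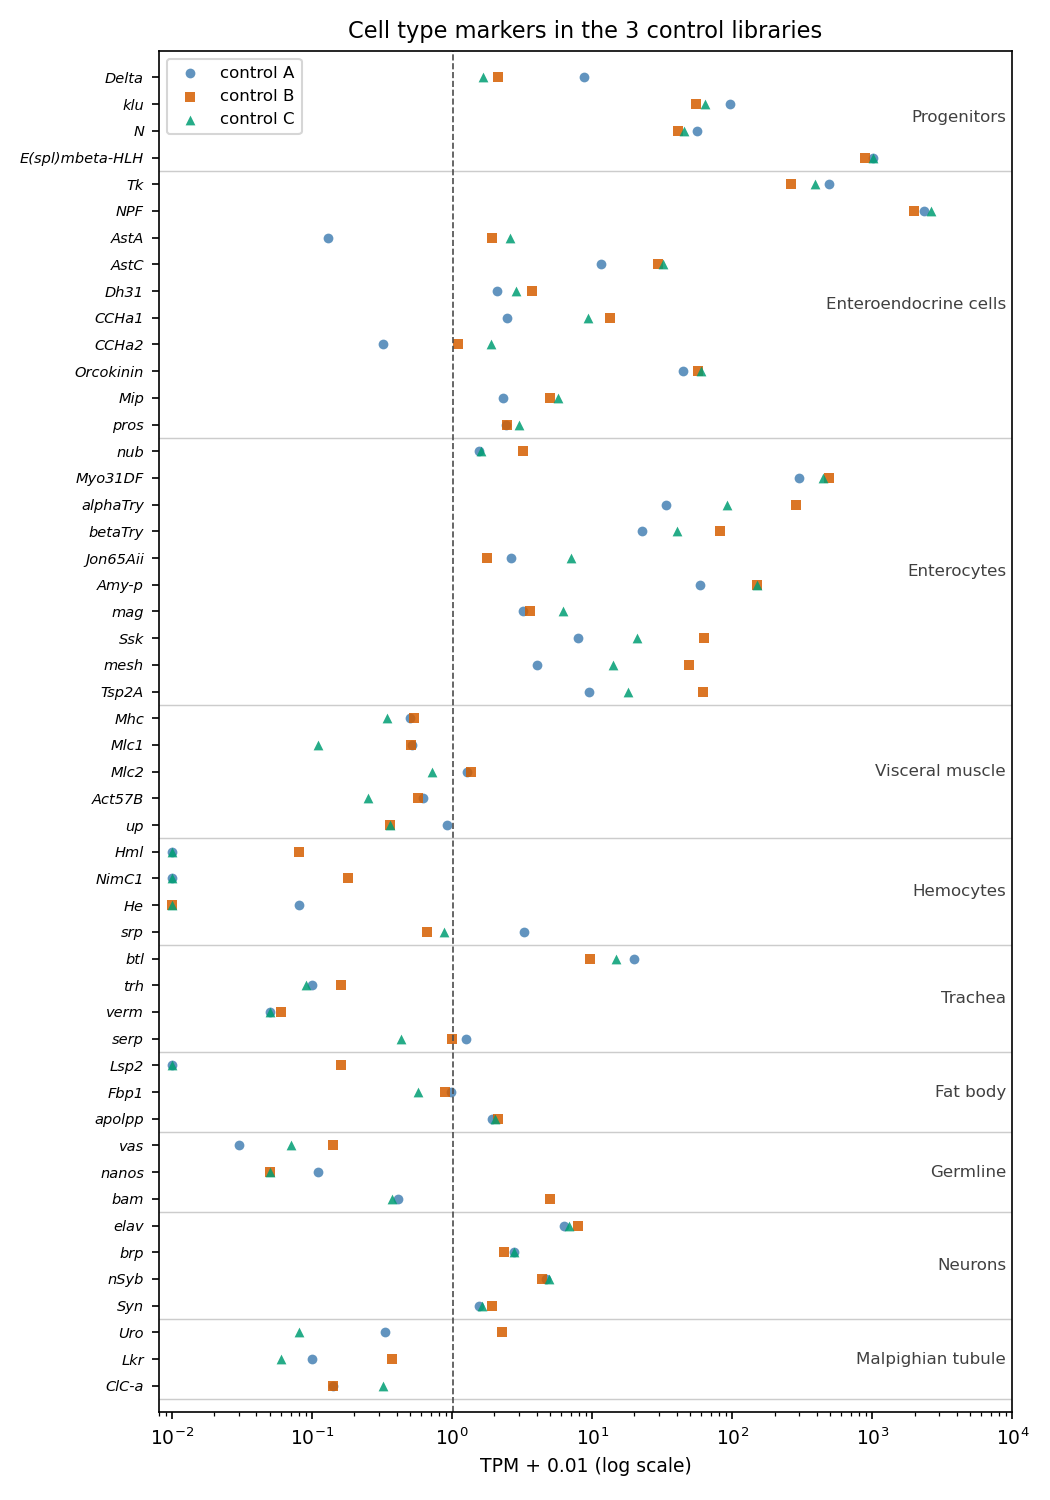
TPM + 0.01 (log scale) of 50 cell type markers in the 3 control libraries, grouped by cell type from top to bottom, with a dashed line at 1 TPM. E(spl)mbeta-HLH, klu, N, NPF, Tk and Orcokinin lie at 41.0 TPM or more in every library, enterocyte markers lie between 1.55 and 493 TPM with control B mostly to the right, and markers of muscle, hemocytes, fat body, germline and Malpighian tubule lie mostly below the line.

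Signalling genes that control midgut renewal were widely expressed, although some ligand genes were near 0. Their counts of detected genes stand beside 7107 of 13883 for all protein-coding genes. In the JAK/STAT pathway 8 of 10 genes were detected. The cytokine gene upd3 had 164, 217 and 251 TPM and upd2 had 23.9, 83.5 and 66.4 TPM, whereas upd1 was at 0.13, 0.12 and 0.13 TPM. The receptor gene dome had 73.7, 50.5 and 66.5 TPM, and the feedback inhibitor Socs36E had 213, 190.5 and 227 TPM. In the EGFR pathway 17 of 19 were detected, led by the adaptor drk with 223, 248 and 266 TPM, the ligand spi with 197, 191 and 220.0 TPM and Ras85D with 122, 155 and 134 TPM. The feedback inhibitor sty had 153, 79.2 and 108 TPM, and the receptor gene Egfr, chosen after its values were seen, had 77.7, 35.8 and 54.5 TPM, with both lowest in control B. In the Wnt pathway 15 of 19 were detected, with 253, 251 and 240.4 TPM for arm, the beta-catenin gene, and 45.2, 33.6 and 43.9 TPM for the receptor gene fz2. The ligand wg was at 0.05, 0.01 and 0 TPM.

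Growth and stress pathways were expressed nearly throughout. Of 16 insulin and TOR genes 15 were detected, beside 7107 of 13883 protein-coding genes. Thor, the translation inhibitor 4E-BP, had 1319, 1629.7 and 1865 TPM, the kinase genes Akt and S6k had 194, 271 and 232 TPM for Akt and 97.5, 109 and 102 TPM for S6k, and Rheb had 59.3, 51.8 and 66.7 TPM. Of 12 genes of BMP signalling 11 were detected, with 117, 71.2 and 119 TPM for the effector Mad and 94.8, 90.9 and 87.4 TPM for Smox, and the ligand dpp at 0.08, 0.68 and 0.14 TPM. Of 12 Hippo pathway genes 10 were detected, with 129, 140.3 and 133 TPM for kibra, 85.1, 87.0 and 84.5 TPM for the coactivator yki and 45.2, 42.2 and 45.7 TPM for its DNA-binding partner sd. The JNK and Pvr list had 11 of 14 detected. Its highest members were the kinase gene msn with 541, 432 and 468 TPM and puc, the phosphatase that restrains JNK, with 344, 372 and 384 TPM. The TNF gene egr had 112, 87.2 and 125 TPM. Of 16 integrin and adhesion genes 14 were detected, led by the integrin beta subunit mys with 799, 715 and 839 TPM, and the linkers Vinc and rhea had 507, 376 and 498 TPM for Vinc, the vinculin gene, and 321, 284 and 292 TPM for rhea, the talin gene. On the list of calcium regulators and receptors 9 of 14 were detected, with 63.3, 79.0 and 56.7 TPM for the calcium pump SERCA and 52.4, 47.2 and 47.5 TPM for Stim. The channel gene TrpA1 had 14.8, 16.3 and 15.6 TPM, whereas RyR, 5-HT2A, Oamb, mGluR and Dop1R1 stayed below 1 TPM in every library.

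Immune sensing genes were expressed, while most antimicrobial peptide genes were not detected. Of 29 listed, 12 were detected, a somewhat lower share than the 7107 of 13883 of all protein-coding genes. Besides Rel, pirk, an inhibitor of the Imd pathway, had 258, 288 and 263 TPM, the secreted recognition protein gene PGRP-SD had 221, 228 and 264 TPM, and the receptor gene PGRP-LC had 93.3, 88.7 and 91.0 TPM. AttD was the only antimicrobial peptide gene of the list detected, with 2.76, 6.78 and 3.18 TPM.

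Histone transcripts in the table came from the polyadenylated replacement genes. His4r had 904, 710.5 and 811 TPM, His3.3B had 493, 481 and 517 TPM, His2Av had 236, 289 and 205 TPM and His3.3A had 135, 154 and 106 TPM. All 23 listed copies of the linker histone gene and 87 of 88 copies of the core histone genes in the histone repeat were listed at 0 in all libraries. These messages lack a poly(A) tail, and their near-identical copies share reads, so these zeros are not a measure of their levels. The germline linker histone BigH1 was at 0, 0 and 0.07 TPM. Cell cycle genes had a low median of 5.75 TPM, although 24 of 30 were detected, a higher share than the 7107 of 13883 of all protein-coding genes. E2f1 had 54.8, 46.1 and 37.4 TPM, its partner Dp had 47.2, 39.2 and 34.3 TPM, Rbf had 37.3, 52.1 and 35.8 TPM, and fzr, an activator of the anaphase-promoting complex known from endocycling cells, had 43.3, 29.1 and 43.4 TPM. RnrL, the large subunit of ribonucleotide reductase, had 24.3, 87.0 and 12.6 TPM, an uneven set that was highest in control B and lowest in control C.

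Genes of energy supply and protein turnover were expressed at moderate levels. Of 94 nuclear oxidative phosphorylation genes 70 were detected, beside 7107 of 13883 protein-coding genes. All those not detected except ND-B8 and ND-MNLL carry a subunit symbol with an added L, such as COX4L and SdhAL. The highest were the ATP synthase genes ATPsynC with 852, 744 and 584 TPM and ATPsynbeta with 808, 671 and 602 TPM. Mitochondrially encoded genes took 3.36%, 4.05% and 4.15% of all TPM. All 12 glycolysis genes were detected, with lactate dehydrogenase, Ldh, highest at 587, 1292 and 769 TPM and pyruvate kinase, PyK, at 387, 538 and 439 TPM. Of 48 proteasome genes 31 were detected, with Prosalpha2 at 176, 178 and 142 TPM, and of 32 genes of the vacuolar proton ATPase 20 were, with Vha16-1 at 415, 401 and 385 TPM. The iron storage subunits Fer2LCH and Fer1HCH, encoded by overlapping genes on opposite strands, had 479, 786 and 583 TPM for Fer2LCH and 384, 671 and 494 TPM for Fer1HCH.

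Noncoding RNA genes made up a small part. Of 2401 long noncoding and antisense genes 203 were detected, a lower share than the 42.3% of the whole table, and 1212 were listed at 0 in all libraries. These were mRNA libraries, which limits what the count says about noncoding RNA. The list summed to 5666, 6661 and 4790 TPM. lncRNA:CR42862 was highest with 1870.4, 1723 and 1731 TPM, and it overlaps CG33229 on the same strand over 1500 bp, so reads may be shared. lncRNA:CR44138 had 581, 1421 and 459.5 TPM, highest in control B, and lncRNA:CR34335 had 807, 628 and 718 TPM. The dosage compensation RNAs of male flies, roX1 and roX2, were at 0.02, 0.02 and 0.06 TPM for roX1 and 0.07, 0 and 0 TPM for roX2, and 0 of 23 protein-coding genes of the Y chromosome were detected. The sex of the flies is not among the labels used here. Of the other chromosomes, 4 had the highest share of its protein-coding genes detected, 54 of 79 or 68.4%, and 2L the lowest, 1236 of 2644 or 46.7%.

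The libraries were close to each other, with control B farthest out. Over the 7530 detected genes, Pearson's r of log2(TPM + 1) was 0.964 between A and B, 0.984 between A and C and 0.971 between B and C, and these are correlations across genes, which are not independent replicates. The median SD of log2(TPM + 1) was 0.20 for the 8080 genes at a mean of 1 TPM or more. Of 6419 genes at a mean of 5 TPM or more, 539, or 8.4%, differed at least 2-fold between the highest and the lowest library on the TPM + 1 scale. Leaving out control B brought this to 129 genes, while it was 368 without control A and 410 without control C. Control A lay at least 2-fold above both others for 20 genes (0.312%) and below both for 60 (0.935%). Control B lay above both others for 197 genes (3.07%) and below both for 9 (0.14%). Control C lay above both for 15 (0.234%) and below both for 22 (0.343%). These are counts of genes past a size in single libraries, with no test.

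**Figure D4:**
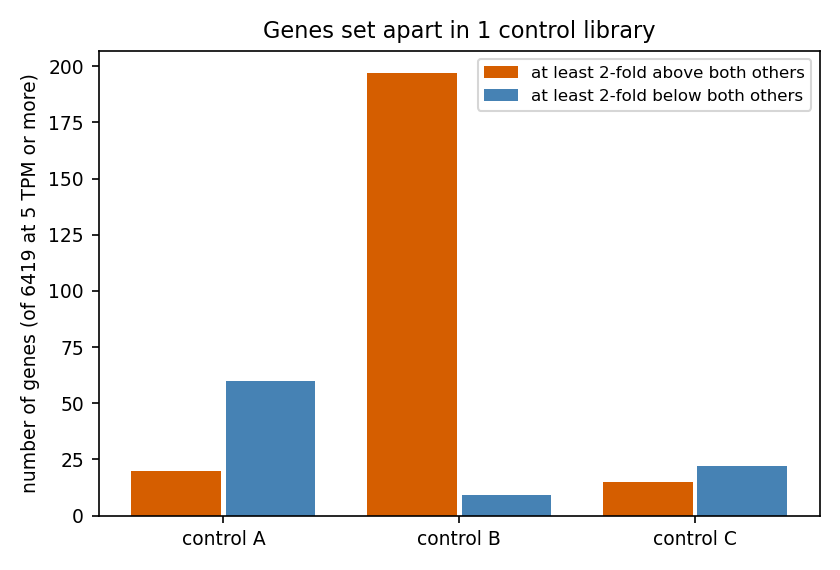
Number of genes (vertical axis, from 0) that lie at least 2-fold above (orange) or below (blue) both other control libraries on the TPM + 1 scale, of the 6419 genes at a mean of 5 TPM or more. Control B has the tallest bar, 197 genes above both others.

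The genes set apart in control B included digestive and metabolic genes. Mal-A1 lay 4.59 above the nearer of the other libraries on the log2(TPM + 1) scale, and CG10911 had 9.47, 187 and 11.8 TPM, a difference of 3.89. tobi, a glucosidase gene known as a target of insulin-producing cells, had 3.81, 62.4 and 3.56 TPM, and the zinc finger gene Lime had 6.60, 99.0 and 4.88 TPM, each 3.72 above the nearer library. The pseudokinase gene trbl had 56.1, 499.9 and 88.7 TPM, 2.48 above control C. Lower in control B than in both others, by less than 2-fold, were peb and vn, already given, and the aquaporin family gene bib with 49.7, 17.6 and 33.7 TPM. Control A stood apart by low values, among them Tektin-C, a filament protein of ciliary microtubules, with 0.78, 78.1 and 43.3 TPM, and CG6357 with 10.2, 102 and 95.8 TPM. GstD5 had 78.9, 559.6 and 315 TPM, lowest in control A. Control C was highest for CG45080 with 27.6, 23.2 and 100.3 TPM and lowest for ImpL2, a secreted insulin-binding protein, with 85.1, 99.98 and 39.1 TPM, and AsnS, asparagine synthetase, with 115, 91.9 and 49.3 TPM. The steadiest genes at 20 TPM or more included RpL39 with 8696, 8631 and 8684 TPM, beta-Spec, the spectrin gene, with 276, 274 and 276 TPM, and Mnn1, the menin gene, with 34.5, 34.8 and 34.6 TPM.

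Some groups of genes were high or low together in a library, and their counts are set here beside those of all 6419 genes, of which control A was highest for 44.6% and lowest for 21.7%, control B highest for 37.6% and lowest for 33.3%, and control C highest for 17.6% and lowest for 44.8%. The median gene sat 0.07 above the mean of the other libraries in control A, 0.01 above in control B and 0.09 below in control C (log2), so small shifts should be read against these. Members at a mean of 5 TPM or more were counted. The lists of inducible heat shock genes, endoplasmic reticulum chaperones, glutathione S-transferases and cytochrome P450 genes were chosen after their values were seen. Their counts therefore only describe these libraries and are no support for a shared shift. Inducible heat shock genes were highest in control A for 14 of 14 members, with a median of 0.71 above the mean of the others, and they summed to 14195 TPM in control A, 6949 in control B and 7754 in control C. Hsp23 (3L, 9381882 to 9382765) had 4938, 2216 and 2169 TPM, Hsp26 had 3292, 1823 and 2005 TPM, Hsp83 had 2782, 1252 and 1764 TPM and Hsp27 had 756, 279.5 and 350.4 TPM. The Hsp70 copies are nearly identical and may have shared reads.

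Chaperones and translocation factors of the endoplasmic reticulum were highest in control B for 17 of 18 members, with a median of 0.75, and summed to 6956, 12553 and 5846 TPM. Hsc70-3 (X, 11801696 to 11807117), the chaperone BiP, had 1681, 4215 and 1275 TPM, the calreticulin gene Calr had 809.9, 1296 and 589 TPM, ERp60 had 632, 1174 and 556 TPM and Gp93 had 583, 1113 and 417 TPM. Glutathione S-transferases were highest in control B for 16 of 29 members and lowest in control A for 15, and summed to 11269, 31279 and 19452 TPM. GstD3 had 414, 1115 and 1078 TPM, while GstE1 ran the other way with 838, 472 and 526 TPM. Cytochrome P450 genes were highest in control B for 25 of 34, with Cyp6a23 at 287, 526 and 365 TPM. These chaperone, glutathione S-transferase and cytochrome P450 lists were chosen after their values were seen, so their counts are descriptive only. Digestive enzymes were lowest in control A for 16 of 20 and highest in control B for 14, and 10 of the 20 lay at least 2-fold above both others in control B.

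Differences in further groups were as follows. Oxidative phosphorylation genes were highest in control A for 62 of 69 members and lowest in control C for 58, with a median in control A of 0.29. The 58 became 41 under TMM scaling and 42 under quantile normalization, while the 62 became 64 and 68. Mitochondrial ribosomal proteins were highest in control A for 59 of 71, while mitochondrially encoded genes were lowest in control A for 11 of 14. Cytosolic ribosomal proteins were lowest in control B for 78 of 83 with a median of -0.14, a count that was 39 after quantile normalization. Cell cycle genes were lowest in control C for 13 of 19. Progenitor genes were highest in control A for 12 of 19 and lowest in control B for 11, and none of these 19 lay 2-fold from both other libraries in any direction. Delta, whose mean is under 5 TPM, was not among them and was highest in control A. Enterocyte identity and junction genes were highest in control B for 9 of 19 members, nearer to the share of all genes than the digestive enzymes were. They were lowest in control A for 11 of the 19, against 21.7% of all genes. In control B, 3 of them lay at least 2-fold above both others, against 3.07% of all genes. In control A, 2 of them lay at least 2-fold below both others, against 0.935%. The 10 defining enterocyte markers summed to 440.3 TPM in control A, 1192 in control B and 789 in control C. The part of enterocytes, of sorting or of handling in these differences between libraries was not tested.

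**Figure D5:**
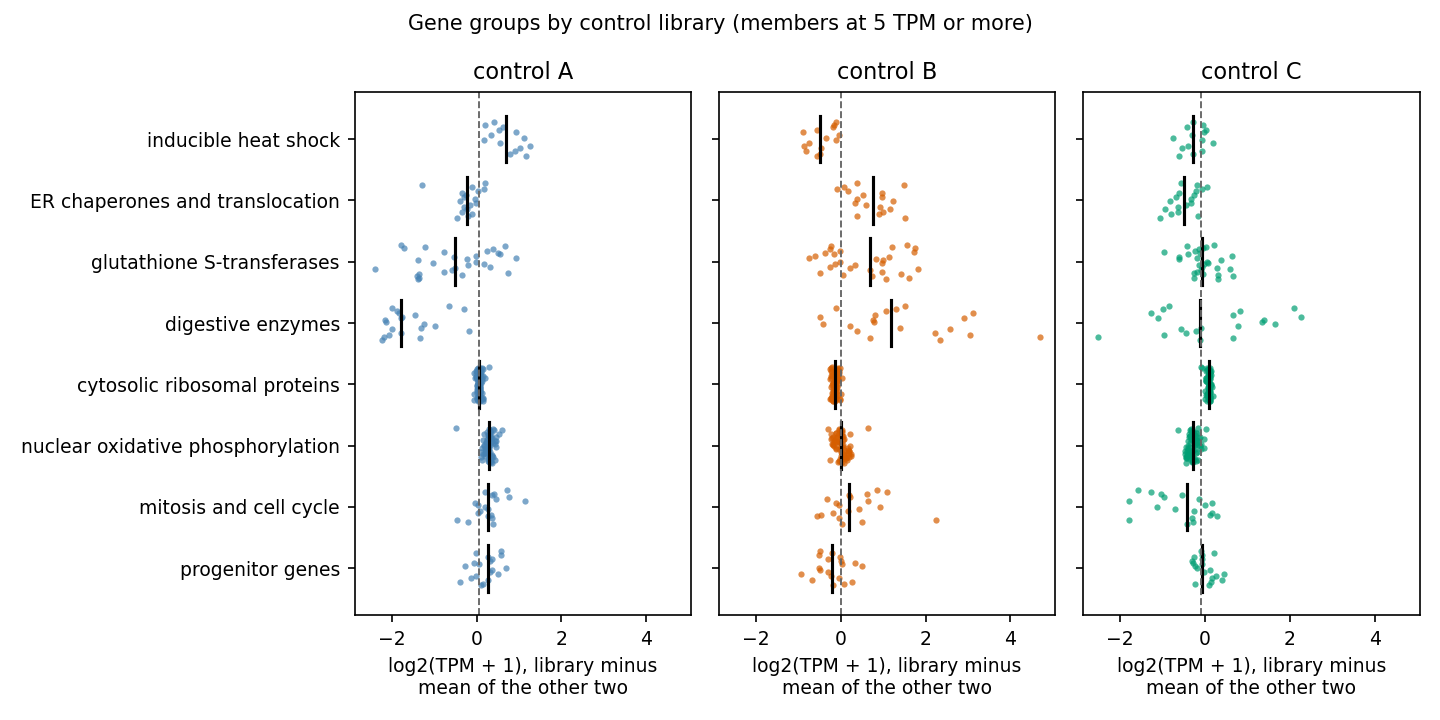
For each control library (panels A, B and C), log2(TPM + 1) minus the mean of the other 2 libraries (horizontal) for the members of 8 gene groups at a mean of 5 TPM or more. Points are genes, black bars are group medians and the dashed line is the median of all 6419 genes. Lists of inducible heat shock genes, endoplasmic reticulum chaperones, glutathione S-transferases and cytochrome P450 genes, where shown, were chosen after their values were seen. Heat shock genes lie to the right in control A, and endoplasmic reticulum chaperones and most digestive enzymes to the right in control B. The progenitor median lies closer to the line than the medians of these groups in panels A and B.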

How the data were processed

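The deposited values are TPM, which the authors gave to 2 decimals, 1 column for each library. Per the submitters' processing notes, bcl2fastq and the dm6 build were used. The aligner, counting tool, strand setting and annotation were not given in the sources used here. TPM keeps no read depth. Gene symbols were matched for 17710 of 17807 identifiers, and the 97 others held at most 0.405% of a library's TPM. Besides esg and Nplp2, the list entries Med, Dpt, Jafrac1, betaTub60D, zip, oho23B and Sdf2 matched no row. They are not in the counts and sums of their lists.

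Only the 3 control columns were read. Genes were ranked by mean TPM. A pseudocount of 1 was used for log2 values, a mean of 1 TPM for the spread, and a mean of 5 TPM for counts of 2-fold differences. No test was run, since 1 group is described. The members and lists were chosen with earlier results of these data known, and the lists of inducible heat shock genes, endoplasmic reticulum chaperones, glutathione S-transferases and cytochrome P450 genes after their values were seen. The rule named the 40 highest genes, up to 5 per list, the 20 highest transcription factors, cell type markers, the 15 most and 10 least variable genes and 8 above and 8 below per library (means of 20 TPM or more), and 10 noncoding genes. Other genes, such as list members below the highest 5 and ribosomal protein paralogs, were named after their values were seen.

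Alternatives were other thresholds, pseudocounts of 0.1 and 5, TMM scaling, quantile normalization and leaving out each library. Scripts were tested on simulated data. Python 3.11.15, pandas 2.3.3, numpy 2.4.6 and matplotlib 3.10.9 were used.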

Additional observations from a re-analysis of the deposited data

How the results depend on the processing

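The number of detected genes ranged from 7602 to 7756 when a library was left out, and was 9441 at a threshold of 0.1 TPM and 6071 at 5 TPM. The 100 highest genes held 56.0% to 58.1% of TPM when a library was left out, and 39 of the 40 highest genes were kept without any 1 library. The median spread of 0.20 (log2) was 0.14 to 0.17 when a library was left out and 0.10 with no filter on low values, which adds genes near 0. The 539 genes that differed 2-fold became 970 with a filter at a mean of 1 TPM, 268 at 20 TPM and 129 to 410 when a library was left out, lowest without control B. With a pseudocount of 5, control A lay 2-fold above both others for 13 genes and below for 34, control B below for 1 and control C below for 3. Control B lay below both for 15 genes under TMM scaling and 22 under quantile normalization, and control C for 12 and 11. The cause of these changes under scaling was not tested. Ribosomal proteins lowest in control B numbered 39 of 83 under quantile normalization, and proteasome genes lowest in control C, 19 of 31 as deposited, numbered 8 under TMM and 7 under quantile normalization. Oxidative phosphorylation genes lowest in control C, 58 of 69 as deposited, numbered 41 under TMM and 42 under quantile normalization. Summed levels of the lists moved by less than 1 SD under TMM and quantile normalization. Without control B the mean sum of digestive enzymes was 573 TPM in place of 940.1, and that of Malpighian tubule genes 2.86 in place of 5.44. No other list with a summed mean of 5 TPM or more moved by over 1.5 times when a library was left out. No paired analysis was possible because no test compares groups here, and the letters are shared only with libraries that were not used. Without read counts, differences among genes near 1 TPM cannot be weighed against counting error.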
